A study of Arabidopsis thaliana with 54 samples.

Results

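The first hours of cold were examined in Arabidopsis thaliana rosettes of the accession Col-0, by comparing plants held for 4 h at 4 °C with plants taken at 0 h, before the transfer. The 6 libraries were chosen by title as those of condition C28P at 4 h and at 0 h, 3 at each time, out of 54 libraries in the series. C28P plants met cold for the first time at 28 days of age. C28P at 4 h is set against C28P at 0 h throughout, and in later paragraphs against C28P at 2 h, against C35P (first cold at 35 days, the developmental control) and against C28PLT (3 days of cold at 28 days, a warm lag of 7 days, then cold again). All plants were unmodified Col-0, grown in soil with a 16 h day before the transfer, and each library came from whole rosettes with the material of 5 samples pooled. The 3 libraries of a group are 1 from each of 3 independent experiments (Exp1 to Exp3). The light was 90 µmol in the cold chamber and 200 µmol in the warm, and 4 h and 0 h also differ in the time of day. Cold, dimmer light and the hour of the day therefore cannot be told apart in this comparison.

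In Arabidopsis, cooling is followed within hours by expression of the CBF (DREB1) transcription factors, AP2-domain proteins that bind the C-repeat, a DNA element with the core CCGAC. Their targets include the COR and LEA genes, whose hydrophilic proteins protect membranes and enzymes during dehydration and freezing, and genes for galactinol and raffinose synthesis. The circadian clock gates this response. Its evening genes (PRR5, TOC1, GI, LUX) carry the evening element, AAAATATCT, which is bound by the morning factors CCA1 and LHY and by REVEILLE proteins.

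Values are CPM (read counts relative to library size, scaled by TMM) per library in the order Exp1, Exp2, Exp3. A gene is said to have risen or fallen when edgeR's quasi-likelihood test gave a Benjamini-Hochberg adjusted p under 0.05. The adjustment ran over all 20720 genes tested, with n = 3 libraries per group. The ± SE beside a log2 fold change is approximate. It is the absolute log2 value divided by the square root of the test's F statistic, and not a separately estimated standard error. The 6 libraries held 28247137 to 34452480 counts at 4 h and 27177568 to 29891900 at 0 h, within the range of the series (23408399 to 34452480, median 28968742). Deviations of log2 CPM from the mean of all libraries followed transcript length unevenly. Spearman's rho was 0.179, 0.303 and -0.363 at 4 h and 0.26, -0.216 and -0.455 at 0 h. The 0 h library of Exp3 had the lowest TMM factor of the series (0.748). Beyond a fit with a length and GC offset, given at the end, the part of this in the results was not tested. 1 of the 6 libraries stood apart. The 0 h library of Exp1 correlated at 0.968 with the 4 h library of Exp1 and at 0.966 with the 2 h library of Exp3, against 0.942 and 0.934 with the other 0 h libraries (Pearson's r of log2 CPM across genes, which are not independent replicates). Whether it was taken at another hour or exchanged with another library was not tested, and folds that include it are uncertain to that extent. Results are therefore also given without it, and a library is named below by its time and experiment (0 h Exp1) where it was left out of a fit. This library was picked from these same data for its likeness to a 4 h and a 2 h library. Larger folds and smaller p-values without it follow in part from that choice and are no separate support. The 2 h libraries were also less like each other (0.936 to 0.942) than like a library of another time. The highest values were 0.971 for 2 h Exp1 with 4 h Exp3, 0.95 for 2 h Exp2 with 4 h Exp2 and 0.966 for 2 h Exp3 with 0 h Exp1. Of the marker lists, mesophyll markers summed to 83630 to 122600 CPM at 4 h and 93730 to 138600 CPM at 0 h. Guard cell markers summed to 15.4 to 23.6 CPM at 4 h and 15 to 25.6 CPM at 0 h, and floral markers to 0.726 to 5.38 CPM at 4 h and 0.619 to 5.66 CPM at 0 h. Root markers summed to 22.4 to 32.4 CPM at 4 h and 20.3 to 39.6 CPM at 0 h, nearly all from PYK10, a beta-glucosidase, and edgeR called 0 of 1 tested, with 0 at an unadjusted p under 0.05 and 0 called by DESeq2. Of the root hair markers, EXP7, RHD6 and LRX1 had 0 counts in all 6 libraries and COBL9 at most 3. Markers of senescing leaf summed to 17.4 to 31.7 CPM at 4 h and 25.1 to 58.8 CPM at 0 h, and edgeR called 0 of 4, with 1 at an unadjusted p under 0.05 and 0 called by DESeq2. The part of these marker levels in the results was not tested.

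After 4 h the cold-acclimation genes CBF3, COR15A, COR15B, LTI30 and RD29A, the evening clock genes PRR5, TOC1, FKF1, ELF4 and LUX, and the RNA-binding protein genes GRP7 and GRP8 were higher. The cell wall genes XTH22 and EXPA8, the calcium-binding TCH2 and CML23, the heat shock factors HSFB2A and HSFB2B and the aquaporin PIP2A were lower. In all, 836 genes rose (4.03% of those tested) and 804 fell (3.88%), together 1640 (7.92%). The risen genes had a median log2 fold change of 1.46 (2.74-fold higher at 4 h), and the fallen genes one of -1.50 (2.83-fold lower). A log2 change of at least 2 was reached by 219 risen and 241 fallen genes. Over all tested genes the median was 0.01. The 4 h and 0 h libraries did not overlap in 1530 of the called genes, against 4379 (21.1%) of all genes tested. In these bulk libraries fewer cells of a type and less RNA per cell cannot be told apart. Without 0 h Exp1, 1189 genes rose (5.67% of genes then tested) and 1188 fell (5.66%), together 11.3%, and 1554 of the 1640 calls (94.8%) remained with the same sign. Leaving out 0 h Exp2 gave 828 calls, 0 h Exp3 662, 4 h Exp1 954 and 4 h Exp2 1003, while 521 genes (275 risen and 246 fallen) were called in every one of the 6 fits that left out 1 library. With all libraries of Exp2 left out, in each of the 18 groups of the series, there were 71 calls, and with all of Exp3 left out 302. A fit on these 6 libraries alone called 272, a fit with the experiments as a block 2016 and one with a block for each condition 2906. Among 572 tested genes on lists of pathways, families and cell markers, 82 rose and 31 fell.

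**Figure D1:**
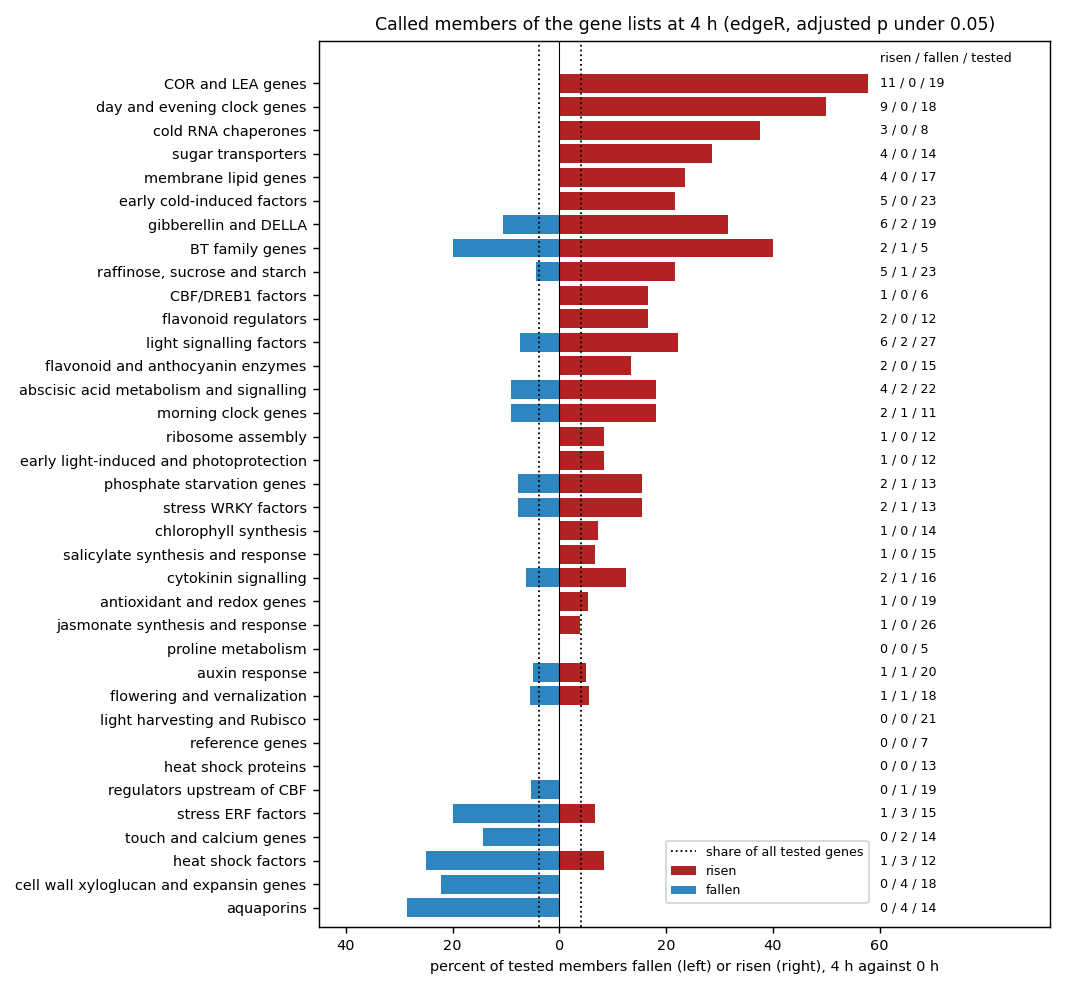
Percent of the tested genes of each list that rose (red, to the right) or fell (blue, to the left) in C28P plants at 4 h against 0 h, with dotted lines at the share over all 20720 genes tested (4.03% risen and 3.88% fallen). COR and LEA genes and day and evening clock genes have the highest shares of risen members among the lists drawn, and aquaporins, heat shock factors and cell wall genes the highest shares of fallen members.

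Among the CBF genes, CBF3 passed the test, with a higher level at 4 h. CBF3 (AT4G25480), also named DREB1A, had 181, 311 and 246 CPM at 4 h, against 71.6, 1.02 and 4.14 CPM at 0 h. Every 4 h library stood above every 0 h library, and the 0 h library of Exp1 stood far above the other 0 h libraries. Its level rose 9.61-fold (log2 3.27 ± 0.79 SE, edgeR adjusted p = 0.0057), and 97-fold (log2 6.6 ± 0.85 SE, edgeR adjusted p = 4.63e-07) without 0 h Exp1. CBF3 lost its call without 0 h Exp3 (edgeR adjusted p up to 0.0697). The lowest fold was 6.5 without 0 h Exp2. CBF1 (AT4G25490) had 13.5, 16.7 and 19.7 CPM at 4 h, against 6.21, 0.271 and 1.19 CPM at 0 h, which do not overlap, but its change was not called (log2 2.7 ± 1.11 SE, edgeR adjusted p = 0.143). Without 0 h Exp1 it was called (23.7-fold higher, edgeR adjusted p = 0.0306). CBF2 (AT4G25470) had 53.2, 139.9 and 139 CPM at 4 h, against 36.5, 6.98 and 36.1 CPM at 0 h, again without overlap and without a call (log2 2.06 ± 0.93 SE, edgeR adjusted p = 0.20). CBF1, CBF2 and CBF3 are near-identical neighbours on chromosome 4, so how reads divide between them is uncertain. Of all 6 CBF/DREB1 genes tested, 1 rose and 0 fell, and their median log2 change was 1.99. With 1 library left out, 0 to 2 rose and 0 fell, and the median ranged from 0.43 to 2.42. The other members, CBF4, DDF1 and DDF2, were at or below 7.8 CPM in each of the 6 libraries at 4 h and 0 h.

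Among 19 regulators that act upstream of the CBFs (ICE1, CAMTA factors, MYB15, kinases), 0 rose and 1 fell. The called share was 5.26%, against 7.92% over all genes tested. CRLK1 (AT5G54590), a calcium/calmodulin-regulated receptor-like kinase, fell 2.28-fold (log2 -1.19 ± 0.33 SE, edgeR adjusted p = 0.0185). CRLK1 lost its call without 4 h Exp2 or Exp3 or 0 h Exp2 or Exp3 (edgeR adjusted p up to 0.0887). Blocking by experiment added 1 risen member to that list.

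Of 23 other factors known to be induced early in cold, 5 rose and 0 fell, with a list median of 0.56. RAV1 (AT1G13260), a B3- and AP2-domain factor, had 269, 463 and 347 CPM at 4 h, against 154, 72.1 and 38.2 CPM at 0 h, and rose 4.08-fold (log2 2.03 ± 0.44 SE, edgeR adjusted p = 0.0018). CRF3 (AT5G53290), a cytokinin response factor, had 48.9, 60.9 and 69.5 CPM at 4 h, against 23.9, 4.2 and 3.85 CPM at 0 h, and rose 5.6-fold (log2 2.49 ± 0.49 SE, edgeR adjusted p = 0.000744). Both groups of both genes were fully separate, with the 0 h library of Exp1 again the highest at 0 h. The DREB2 factors, better known from drought and heat, were low in level. DREB2A (AT5G05410) had 5.94, 7.8 and 2.97 CPM at 4 h, against 3.1, 0.0339 and 0.0476 CPM at 0 h, with the 4 h library of Exp3 below the 0 h library of Exp1, and rose 5.18-fold (log2 2.37 ± 0.73 SE, edgeR adjusted p = 0.0335). DREB2B (AT3G11020) rose 5.12-fold (log2 2.36 ± 0.70 SE, edgeR adjusted p = 0.0292) and DEAR1 (AT3G50260), a repressor of the DREB family, rose 8.81-fold (log2 3.14 ± 1.02 SE, edgeR adjusted p = 0.0487). With the experiments as a block DEAR1 was not called (edgeR adjusted p = 0.0638). DREB2A and DREB2B lost their calls without 4 h Exp1 or Exp2 or 0 h Exp2 or Exp3 (edgeR adjusted p up to 0.228) and DEAR1 without 4 h Exp1, Exp2 or Exp3 or 0 h Exp2 or Exp3 (edgeR adjusted p up to 0.274). When 1 library was left out at a time, the highest values were 6.53-fold for RAV1, 14.8-fold for CRF3, 127-fold for DREB2A, 91.9-fold for DREB2B and 18.8-fold for DEAR1 without 0 h Exp1. That of DREB2A rests on 0 h levels of 0.0339 and 0.0476 CPM, near the floor of the counts, so its size is uncertain. The lowest values were 3.38-fold for DREB2B without 0 h Exp2 and 4.76-fold for DEAR1 without 4 h Exp2. The number risen ranged from 2 to 7 over these fits.

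The COR and LEA genes formed the list with the most risen members, 11 of 19 tested and 0 fallen, with a median log2 change of 1.78 against 0.01 over all genes. LTI30 (AT3G50970), a dehydrin, had 202, 472 and 216 CPM at 4 h, against 62.6, 8.47 and 8.8 CPM at 0 h. All 4 h libraries were above all 0 h libraries, and Exp2 was the highest at 4 h. LTI30 rose 11.1-fold (log2 3.48 ± 0.78 SE, edgeR adjusted p = 0.00275), and 34.3-fold (log2 5.1 ± 0.93 SE, edgeR adjusted p = 0.000127) without 0 h Exp1. COR15A (AT2G42540), a chloroplast protein that stabilises membranes on freezing, had 1569.7, 2198 and 2690.2 CPM at 4 h, against 899, 269 and 471 CPM at 0 h, and rose 3.94-fold (log2 1.98 ± 0.48 SE, edgeR adjusted p = 0.0057). Its neighbour and near copy COR15B (AT2G42530) had 702, 830.4 and 760.0 CPM at 4 h, against 295, 20.6 and 42 CPM at 0 h, and rose 6.41-fold (log2 2.68 ± 0.55 SE, edgeR adjusted p = 0.00121). The division of reads between these copies is uncertain. COR413-PM1 (AT2G15970), a cold-regulated plasma membrane protein, had 1186, 1566 and 1568 CPM at 4 h, against 501, 154 and 215 CPM at 0 h, and rose 4.97-fold (log2 2.31 ± 0.41 SE, edgeR adjusted p = 0.000229). RD29A (AT5G52310), a gene long used to study the C-repeat as a dehydration-responsive element, had 501, 724 and 284 CPM at 4 h, against 278, 18.2 and 24.6 CPM at 0 h. Its 0 h library of Exp1 lay close below the lowest 4 h library, and it rose 4.7-fold (log2 2.23 ± 0.66 SE, edgeR adjusted p = 0.0259). Of the dehydrins, ERD10 (AT1G20450) rose 4.97-fold (log2 2.31 ± 0.48 SE, edgeR adjusted p = 0.00132) and COR47 (AT1G20440) rose 4.96-fold (log2 2.31 ± 0.58 SE, edgeR adjusted p = 0.00791), a closely similar pair. KIN2 (AT5G15970) rose 2.68-fold (log2 1.42 ± 0.42 SE, edgeR adjusted p = 0.0289), COR413IM1 (AT1G29395), of the chloroplast inner envelope, rose 3.93-fold (log2 1.97 ± 0.52 SE, edgeR adjusted p = 0.0128), LEA14 (AT1G01470) rose 3.44-fold (log2 1.78 ± 0.57 SE, edgeR adjusted p = 0.0422) and ERD7 (AT2G17840) rose 4.96-fold (log2 2.31 ± 0.61 SE, edgeR adjusted p = 0.012). COR15A lost its call without 0 h Exp2 or Exp3 (edgeR adjusted p up to 0.0699), RD29A without 4 h Exp1 or Exp2 or 0 h Exp2 or Exp3 (edgeR adjusted p up to 0.209), and COR47, COR413IM1 and ERD7 without 4 h Exp2 or 0 h Exp2 or Exp3 (edgeR adjusted p up to 0.205). KIN2 lost its call without 4 h Exp2 or Exp3 or 0 h Exp2 or Exp3 (edgeR adjusted p up to 0.163) and LEA14 without 4 h Exp2 or Exp3 or 0 h Exp1, Exp2 or Exp3 (edgeR adjusted p up to 0.245). Over the fits that left out 1 library, the highest values were 34.4-fold for LTI30, 24.4-fold for COR15B, 7.82-fold for COR413-PM1, 23.6-fold for RD29A, 8.29-fold for ERD10 and 9.64-fold for COR47 without 0 h Exp1. The lowest value was 2.69-fold for ERD7 without 4 h Exp2. From 4 to 11 members were called as risen in those fits.

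**Figure D2:**
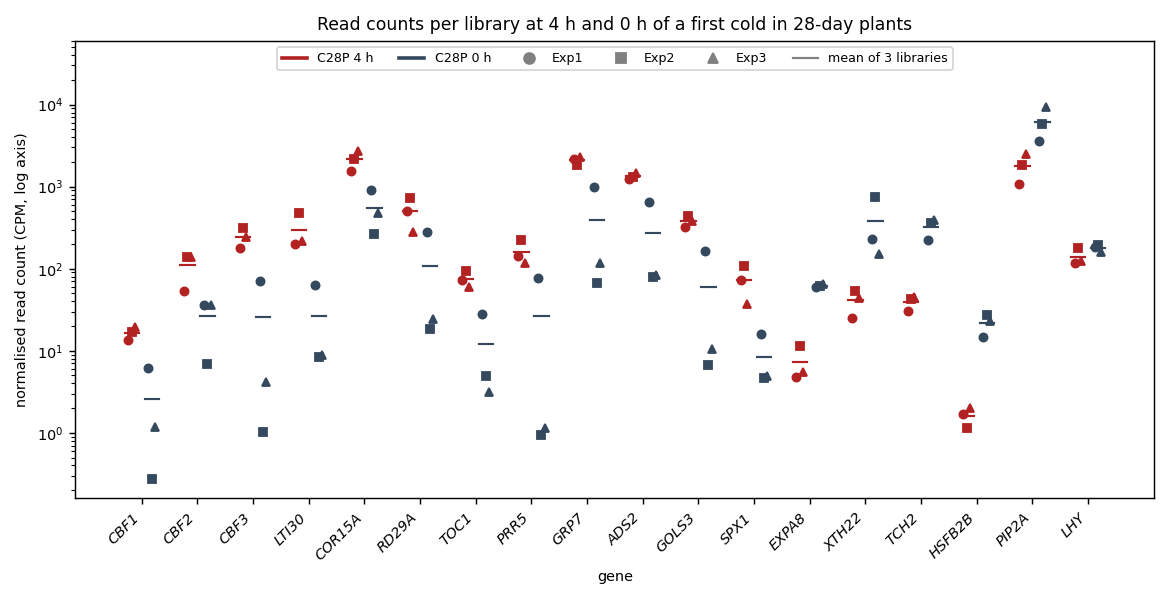
CPM (log axis) of 18 genes in each C28P library at 4 h (left) and 0 h (right), with 1 point per library, marked by experiment. For CBF3, TOC1, PRR5 and GRP7 the 0 h point of Exp1 lies between the 4 h points and the other 0 h points, while for TCH2, EXPA8 and HSFB2B all 0 h points lie together above the 4 h points.

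The 250 bases before the annotated start of LTI30 and RD29A are printed because both genes rose and both hold several C-repeat cores. They are taken from RefSeq's TAIR10.1, at chr3:18940393-18940642 (plus strand) and chr5:21240467-21240716 (plus strand), read 5′ to 3′ in the direction of the gene, with CCGAC, or GTCGG where the core lies on the other strand, in capitals.
LTI30: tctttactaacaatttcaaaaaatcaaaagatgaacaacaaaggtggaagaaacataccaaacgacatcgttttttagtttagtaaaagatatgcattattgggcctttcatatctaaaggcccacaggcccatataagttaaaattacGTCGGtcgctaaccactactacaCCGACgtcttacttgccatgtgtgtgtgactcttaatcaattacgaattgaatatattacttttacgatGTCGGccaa
RD29A: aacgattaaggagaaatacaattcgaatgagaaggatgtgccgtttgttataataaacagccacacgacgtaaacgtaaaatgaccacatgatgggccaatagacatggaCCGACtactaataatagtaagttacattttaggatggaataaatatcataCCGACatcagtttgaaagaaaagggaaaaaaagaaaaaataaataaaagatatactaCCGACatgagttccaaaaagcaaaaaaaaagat
LTI30 held 3 cores and RD29A 3, and those of RD29A all lay on the gene's own strand. Searched on both strands in the same 250 bases, CCGAC occurred before 170 of 836 risen genes (20.3%), 87 of 804 fallen genes (10.8%) and 2695 of all 20719 tested genes with a promoter sequence (13%). COR15A, COR413-PM1, ERD7, GOLS3, RS5, RVE2, STP13 and SLD1 were other risen genes with the core, and BT5, ACS11, ESE3, HSFB2A and AHG3 were fallen genes with it. The G-box CACGTG occurred before 8.73% of risen genes, 7.09% of fallen genes and 7.3% of all, and the CAMTA core CGCGTT before 2.75%, 3.23% and 2.9%. A stretch can hold several of these motifs and is then counted for each. A match is a run of letters and not a measured binding site.

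Of 18 day and evening clock genes tested, 9 rose and 0 fell, with a median log2 change of 1.32, or 2.09 without 0 h Exp1. With the experiments as a block 9 rose and 1 fell. TOC1 (AT5G61380), a pseudo-response regulator that represses the morning genes, had 72.2, 93.1 and 59.8 CPM at 4 h, against 28.1, 4.92 and 3.14 CPM at 0 h. Its groups were separate, and it rose 6.22-fold (log2 2.64 ± 0.46 SE, edgeR adjusted p = 0.000234). PRR5 (AT5G24470), a related repressor, had 142, 225 and 119 CPM at 4 h, against 77.2, 0.949 and 1.14 CPM at 0 h. Both other 0 h libraries were near 1 CPM while that of Exp1 approached the 4 h level, and PRR5 rose 6.12-fold (log2 2.61 ± 0.77 SE, edgeR adjusted p = 0.0273), or 155-fold (log2 7.28 ± 0.71 SE, edgeR adjusted p = 1.61e-09) without that library. FKF1 (AT1G68050), a blue-light receptor F-box protein, showed the same order with 81, 109 and 59.7 CPM at 4 h, against 37.9, 0.644 and 0.619 CPM at 0 h, and rose 6.38-fold (log2 2.67 ± 0.72 SE, edgeR adjusted p = 0.0146). LKP2 (AT2G18915), of the same family, rose 2.07-fold (log2 1.05 ± 0.20 SE, edgeR adjusted p = 0.000526). LUX (AT3G46640) and ELF4 (AT2G40080), which form the evening complex with ELF3, had 92.1, 148 and 140.3 CPM at 4 h, against 66.5, 10 and 20.2 CPM at 0 h for LUX and 93.2, 111 and 121 CPM at 4 h, against 44, 1.93 and 1.76 CPM at 0 h for ELF4. LUX rose 3.93-fold (log2 1.97 ± 0.38 SE, edgeR adjusted p = 0.000652), ELF4 rose 6.81-fold (log2 2.77 ± 0.75 SE, edgeR adjusted p = 0.0141) and ELF3 (AT2G25930) rose 4.67-fold (log2 2.22 ± 0.60 SE, edgeR adjusted p = 0.0145). GI (AT1G22770), which stabilises the F-box proteins of the clock, rose 4.97-fold (log2 2.31 ± 0.74 SE, edgeR adjusted p = 0.0436), and PRR3 (AT5G60100) rose 3.9-fold (log2 1.96 ± 0.59 SE, edgeR adjusted p = 0.0291). PRR5, GI and PRR3 lost their calls without 4 h Exp1 or Exp2 or 0 h Exp2 or Exp3 (edgeR adjusted p up to 0.259), FKF1 and ELF3 without 4 h Exp2 or 0 h Exp2 or Exp3 (edgeR adjusted p up to 0.129), and ELF4 without 0 h Exp2 or Exp3 (edgeR adjusted p up to 0.124). With 1 library left out at a time, the highest values were 18.6-fold for TOC1, 155-fold for PRR5, 131-fold for FKF1, 8.41-fold for LUX, 58.6-fold for ELF4, 14-fold for ELF3, 31.6-fold for GI and 18-fold for PRR3 without 0 h Exp1. These fits called 3 to 10 of the list as risen.

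Morning clock genes were mixed, with 2 risen and 1 fallen of 11 tested. RVE2 (AT5G37260) had 22.3, 49.9 and 29.7 CPM at 4 h, against 8.15, 2.2 and 4.9 CPM at 0 h, and rose 6.69-fold (log2 2.74 ± 0.59 SE, edgeR adjusted p = 0.0019). RVE7 (AT1G18330) had 16.9, 14.4 and 15 CPM at 4 h, against 8.0, 1.63 and 2.0 CPM at 0 h, and rose 3.97-fold (log2 1.99 ± 0.41 SE, edgeR adjusted p = 0.00121). RVE8 (AT3G09600), a MYB-like activator of evening genes, fell 2.08-fold (log2 -1.06 ± 0.28 SE, edgeR adjusted p = 0.0135). The core repressors were not called. LHY (AT1G01060) had 116, 181 and 125 CPM at 4 h, against 184, 196 and 158 CPM at 0 h (log2 -0.35 ± 0.31 SE, edgeR adjusted p = 0.595), and CCA1 (AT2G46830) had 71.7, 119.7 and 58.9 CPM at 4 h, against 90.1, 40.3 and 37.1 CPM at 0 h (log2 0.58 ± 0.46 SE, edgeR adjusted p = 0.542), and in both genes the groups overlapped. RVE8 lost its call without 4 h Exp1 or Exp3 or 0 h Exp2 or Exp3 (edgeR adjusted p up to 0.101). Among fits that left out 1 library, the highest value was 8.53-fold for RVE7 without 0 h Exp1.

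The 250 bases before TOC1, LUX and GRP7 are printed because these genes rose at 4 h and carry the evening element, shown in capitals as AAAATATCT or, on the other strand, AGATATTTT. They are from RefSeq's TAIR10.1 at chr5:24674713-24674962 (plus strand), chr3:17182792-17183041 (plus strand) and chr2:9266558-9266807 (minus strand), each read 5′ to 3′ in the direction of the gene.
TOC1: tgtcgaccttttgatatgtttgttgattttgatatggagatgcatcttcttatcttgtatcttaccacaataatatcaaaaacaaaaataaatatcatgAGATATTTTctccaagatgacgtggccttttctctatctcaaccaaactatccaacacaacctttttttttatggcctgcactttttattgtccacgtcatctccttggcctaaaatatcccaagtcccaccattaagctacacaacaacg
LUX: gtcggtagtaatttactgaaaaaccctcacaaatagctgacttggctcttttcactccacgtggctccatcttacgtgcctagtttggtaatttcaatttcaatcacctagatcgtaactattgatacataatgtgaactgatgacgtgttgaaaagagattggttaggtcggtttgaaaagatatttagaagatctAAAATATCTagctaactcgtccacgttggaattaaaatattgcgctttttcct
GRP7: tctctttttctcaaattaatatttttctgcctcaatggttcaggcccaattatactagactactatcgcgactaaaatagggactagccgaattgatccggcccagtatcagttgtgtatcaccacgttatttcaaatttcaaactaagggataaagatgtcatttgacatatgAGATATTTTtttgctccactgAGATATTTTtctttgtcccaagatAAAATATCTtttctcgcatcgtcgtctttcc
GRP7 held 3 matches, and TOC1 and LUX 1 each. LUX also held CCGAC at other positions, which do not overlap the evening element. AAAATATCT occurred, on either strand, before 97 of 836 risen genes (11.6%), 9 of 804 fallen genes (1.12%) and 522 of all 20719 (2.52%). PRR5, FKF1, GRP8, RVE7, BBX8, HSFA8, LEA14 and PORB were further risen genes with it. The cold-regulated COR27 (AT5G42900), a repressor within the clock, had 151, 236 and 207 CPM at 4 h, against 64.9, 2.88 and 3.24 CPM at 0 h, and rose 8.36-fold (log2 3.06 ± 0.80 SE, edgeR adjusted p = 0.0106). COR27 lost its call without 0 h Exp2 or Exp3 (edgeR adjusted p up to 0.105). Its fold was 64.8 without 0 h Exp1.

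Of 8 genes for cold RNA chaperones, 3 rose and 0 fell (2 to 4 risen and 0 fallen with 1 library left out). GRP7 (AT2G21660), a glycine-rich RNA-binding protein whose transcript cycles with the clock, had 2166, 1814 and 2311 CPM at 4 h, against 1000.3, 67.6 and 118 CPM at 0 h. The 0 h library of Exp1 was many times above the other 0 h libraries yet below each 4 h library, and GRP7 rose 5.31-fold (log2 2.41 ± 0.53 SE, edgeR adjusted p = 0.00222), or 22.6-fold (log2 4.5 ± 0.48 SE, edgeR adjusted p = 1.12e-08) without it. GRP8 (AT4G39260), its close copy, had 1066, 744 and 1051 CPM at 4 h, against 520.2, 91.8 and 103 CPM at 0 h, and rose 4.0-fold (log2 2.0 ± 0.43 SE, edgeR adjusted p = 0.00164). CSP1 (AT4G36020), a cold shock domain protein, rose 2.21-fold (log2 1.14 ± 0.30 SE, edgeR adjusted p = 0.0127). Of 12 ribosome assembly genes, only REIL2 (AT2G24500), which acts in late maturation of the large subunit, was called, and it rose 1.72-fold (log2 0.78 ± 0.24 SE, edgeR adjusted p = 0.0343). The called share of the ribosome assembly list, 8.33%, was near the 7.92% over all genes tested. That list gained calls without 0 h Exp1 (4 risen) and with the experiments as a block (2 risen). CSP1 lost its call without 4 h Exp1 or 0 h Exp2 or Exp3 (edgeR adjusted p up to 0.107) and REIL2 without 4 h Exp1 or Exp2 or 0 h Exp2 or Exp3 (edgeR adjusted p up to 0.312). Leaving out 1 library at a time, the highest values were 22.6-fold for GRP7 and 9.78-fold for GRP8 without 0 h Exp1.

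Factors of light signalling moved in both directions, with 6 risen and 2 fallen of 27 tested (4 to 7 risen and 1 to 3 fallen with 1 library left out). HY5 (AT5G11260), a bZIP activator of photomorphogenesis, had 29.6, 37.6 and 31.5 CPM at 4 h, against 13.8, 10.7 and 16.5 CPM at 0 h, and rose 2.4-fold (log2 1.27 ± 0.29 SE, edgeR adjusted p = 0.00294). Its relative HYH (AT3G17609) had 72, 69.9 and 62.2 CPM at 4 h, against 33.6, 18.2 and 28 CPM at 0 h, and rose 2.56-fold (log2 1.36 ± 0.28 SE, edgeR adjusted p = 0.00123). BBX29 (AT5G54470), a B-box zinc finger factor, had 53.8, 94 and 57.2 CPM at 4 h, against 17.2, 6.98 and 9.28 CPM at 0 h, and rose 6.13-fold (log2 2.62 ± 0.40 SE, edgeR adjusted p = 4.85e-05). These were separate groups with 0 h libraries of like level, apart from BBX29 in Exp1. Of the other B-box genes, BBX22 (AT1G78600) rose 5.11-fold (log2 2.35 ± 0.54 SE, edgeR adjusted p = 0.00349), BBX7 (AT3G07650) rose 5.0-fold (log2 2.32 ± 0.56 SE, edgeR adjusted p = 0.00539) and BBX8 (AT5G48250) rose 4.88-fold (log2 2.29 ± 0.68 SE, edgeR adjusted p = 0.0277). PIF1 (AT2G20180), a bHLH repressor of light responses, had 1.29, 1.31 and 1.44 CPM at 4 h, against 4.97, 5.83 and 8.76 CPM at 0 h, and fell 4.83-fold (log2 -2.27 ± 0.42 SE, edgeR adjusted p = 0.000395). BBX16 (AT1G73870) fell 2.63-fold (log2 -1.39 ± 0.37 SE, edgeR adjusted p = 0.0138). BBX7 lost its call without 0 h Exp2 or Exp3 (edgeR adjusted p up to 0.0792), BBX8 without 4 h Exp1 or Exp2 or 0 h Exp2 or Exp3 (edgeR adjusted p up to 0.209), and BBX16 without 4 h Exp1 or Exp3 or 0 h Exp2 or Exp3 (edgeR adjusted p up to 0.136). Among the fits without 1 library, the highest values were 34.5-fold for BBX22, 21.1-fold for BBX7 and 45.5-fold for BBX8 without 0 h Exp1.

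Of the photosynthetic lists, photoprotection had 8.33% of its tested genes called and chlorophyll synthesis 7.14%, against 7.92% over all genes tested. Both were near that overall share. Of 21 light-harvesting and Rubisco genes, edgeR called 0, with 2 at an unadjusted p under 0.05 and 0 called by DESeq2, and their log2 changes lay between -0.61 (LHCB4.2) and 0.36 (LHCB1.4). ELIP1 (AT3G22840), an early light-induced protein that binds free pigment, was the member called of 12 photoprotection genes. It had 342, 263 and 339.9 CPM at 4 h, against 176, 21.6 and 81.2 CPM at 0 h, and rose 3.39-fold (log2 1.76 ± 0.47 SE, edgeR adjusted p = 0.0124). That list counted 3 risen without 0 h Exp1 and 2 with the block. Of 14 chlorophyll synthesis genes PORB (AT4G27440), a protochlorophyllide oxidoreductase, rose 3.11-fold (log2 1.64 ± 0.53 SE, edgeR adjusted p = 0.0488), with 266, 215 and 252 CPM at 4 h, against 192, 18.1 and 25.5 CPM at 0 h. ELIP1 lost its call without 0 h Exp2 or Exp3 (edgeR adjusted p up to 0.11) and PORB without 4 h Exp1, Exp2 or Exp3 or 0 h Exp2 or Exp3 (edgeR adjusted p up to 0.317). For this pair, the highest values were 6.14-fold for ELIP1 and 11.2-fold for PORB without 0 h Exp1.

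Flavonol regulators and a part of the pathway rose. MYB111 (AT5G49330), an R2R3-MYB activator of flavonol synthesis, had 96, 64 and 80.9 CPM at 4 h, against 33.7, 3.9 and 5.23 CPM at 0 h. The groups were separate, and it rose 5.61-fold (log2 2.49 ± 0.49 SE, edgeR adjusted p = 0.00074). Its relative MYB12 (AT2G47460) rose 4.37-fold (log2 2.13 ± 0.50 SE, edgeR adjusted p = 0.00461). These were 2 risen of 12 regulators, with 0 fallen (1 to 3 risen and 0 fallen with 1 library left out). Among 15 enzymes, PAL2 (AT3G53260), at the entry to phenylpropanoids, rose 2.61-fold (log2 1.38 ± 0.35 SE, edgeR adjusted p = 0.0083), and UGT78D2 (AT5G17050), a flavonoid glucosyltransferase, rose 2.79-fold (log2 1.48 ± 0.29 SE, edgeR adjusted p = 0.00074). UGT78D2 had 338, 351 and 341 CPM at 4 h, against 177, 73.6 and 118 CPM at 0 h. Without 0 h Exp1, 5 enzymes and 3 regulators were called as risen. MYB12 lost its call without 0 h Exp2 or Exp3 (edgeR adjusted p up to 0.0633) and PAL2 without 4 h Exp1 or 0 h Exp2 or Exp3 (edgeR adjusted p up to 0.103). Of their folds with 1 library left out, the highest values were 17.6-fold for MYB111, 12.1-fold for MYB12 and 4.49-fold for PAL2 without 0 h Exp1.

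Of 23 genes of raffinose, sucrose and starch metabolism, 5 rose and 1 fell (2 to 8 risen and 1 to 2 fallen with 1 library left out). GOLS3 (AT1G09350), a cold-responsive galactinol synthase, had 326, 439 and 378 CPM at 4 h, against 163, 6.64 and 10.5 CPM at 0 h. Its 0 h library of Exp1 was far above the other 0 h libraries, and GOLS3 rose 6.35-fold (log2 2.67 ± 0.75 SE, edgeR adjusted p = 0.0188). RS5 (AT5G40390), a raffinose synthase, had 114, 296 and 166 CPM at 4 h, against 66.9, 28.5 and 46 CPM at 0 h, and rose 4.08-fold (log2 2.03 ± 0.40 SE, edgeR adjusted p = 0.00077). SUS1 (AT5G20830), a sucrose synthase, had 61.2, 127 and 89.9 CPM at 4 h, against 42.8, 14.4 and 17.8 CPM at 0 h, and rose 3.71-fold (log2 1.89 ± 0.41 SE, edgeR adjusted p = 0.00188). In starch metabolism, the glucan phosphatase SEX4 (AT3G52180) rose 2.21-fold (log2 1.14 ± 0.31 SE, edgeR adjusted p = 0.0146) and the plastid amylase AMY3 (AT1G69830) rose 2.58-fold (log2 1.37 ± 0.38 SE, edgeR adjusted p = 0.0163). BAM9 (AT5G18670), a member of the beta-amylase family, had 6.4, 14.3 and 9.03 CPM at 4 h, against 33.7, 44.1 and 43.2 CPM at 0 h, fully separate, and fell 4.07-fold (log2 -2.02 ± 0.47 SE, edgeR adjusted p = 0.00365). GOLS3 lost its call without 4 h Exp2 or 0 h Exp2 or Exp3 (edgeR adjusted p up to 0.162), SEX4 without 4 h Exp1 or 0 h Exp2 or Exp3 (edgeR adjusted p up to 0.117), and AMY3 without 4 h Exp1 or Exp2 or 0 h Exp2 or Exp3 (edgeR adjusted p up to 0.167). By library left out, the highest values were 44.5-fold for GOLS3, 5.76-fold for SUS1 and 4.18-fold for AMY3 without 0 h Exp1. That list counted, without 0 h Exp1, 8 risen and 2 fallen.

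Of 14 sugar transporter genes, 4 rose and 0 fell (1 to 4 risen and 0 fallen with 1 library left out). The plasma membrane hexose transporter STP13 (AT5G26340) had 37, 109 and 47.8 CPM at 4 h, against 21.6, 7.39 and 3.05 CPM at 0 h, and rose 6.03-fold (log2 2.59 ± 0.71 SE, edgeR adjusted p = 0.0163). ESL1 (AT1G08920), a vacuolar monosaccharide transporter, had 38.4, 68.3 and 33.6 CPM at 4 h, against 15.1, 15 and 11.4 CPM at 0 h, and rose 3.38-fold (log2 1.76 ± 0.39 SE, edgeR adjusted p = 0.0022). Of the tonoplast transporters, TMT1 (AT1G20840) rose 2.72-fold (log2 1.45 ± 0.43 SE, edgeR adjusted p = 0.0293) and TMT2 (AT4G35300) rose 1.93-fold (log2 0.95 ± 0.31 SE, edgeR adjusted p = 0.0495), and the TMT2 groups overlapped. Of 5 proline genes edgeR called 0, with 1 at an unadjusted p under 0.05 and 1 called by DESeq2, and gave log2 changes from -0.68 (P5CR) to 0.85 (ERD5). STP13 lost its call without 4 h Exp2 or 0 h Exp2 or Exp3 (edgeR adjusted p up to 0.159), TMT1 without 4 h Exp1, Exp2 or Exp3 or 0 h Exp2 or Exp3 (edgeR adjusted p up to 0.248), and TMT2 without 4 h Exp1 or Exp2 or 0 h Exp2 or Exp3 (edgeR adjusted p up to 0.352). Across fits with 1 library left out, the highest values were 12.3-fold for STP13, 5.24-fold for TMT1 and 2.97-fold for TMT2 without 0 h Exp1. The lowest value was 3.96-fold for STP13 without 4 h Exp2.

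Membrane lipid genes gave 4 risen and 0 fallen of 17 tested (2 to 6 risen and 0 fallen with 1 library left out). ADS2 (AT2G31360), an acyl-lipid desaturase tied to chilling tolerance in Arabidopsis, had 1256, 1329 and 1467 CPM at 4 h, against 646, 80.1 and 84 CPM at 0 h. The 4 h libraries were close to each other and all above 0 h, and ADS2 rose 5.0-fold (log2 2.32 ± 0.47 SE, edgeR adjusted p = 0.000912). DGAT1 (AT2G19450), which makes triacylglycerol, had 35.3, 41.1 and 39.3 CPM at 4 h, against 16.8, 1.76 and 1.9 CPM at 0 h, and rose 5.64-fold (log2 2.5 ± 0.46 SE, edgeR adjusted p = 0.000358). SLD1 (AT3G61580), a sphingoid base desaturase, rose 2.52-fold (log2 1.34 ± 0.31 SE, edgeR adjusted p = 0.00413), and MGD3 (AT2G11810), a galactolipid synthase, rose 4.94-fold (log2 2.31 ± 0.75 SE, edgeR adjusted p = 0.0466). Phosphate starvation genes included 2 risen and 1 fallen of 13 (1 to 4 risen and 0 fallen with 1 library left out). SPX1 (AT5G20150), a phosphate sensor that restrains PHR1, had 73.4, 109 and 37.2 CPM at 4 h, against 15.9, 4.61 and 5.0 CPM at 0 h, and rose 8.59-fold (log2 3.1 ± 0.59 SE, edgeR adjusted p = 0.000567). SPX2 (AT2G26660) had 35.7, 30.2 and 25.2 CPM at 4 h, against 13.1, 13.8 and 13.3 CPM at 0 h, with 0 h libraries of nearly equal level, and rose 2.27-fold (log2 1.18 ± 0.32 SE, edgeR adjusted p = 0.0133). SPX4 (AT5G15330) fell 2.05-fold (log2 -1.03 ± 0.32 SE, edgeR adjusted p = 0.0336). Without 0 h Exp1 4 phosphate genes rose and 0 fell, and with the experiments as a block 4 rose and 1 fell. SLD1 lost its call without 0 h Exp3 (edgeR adjusted p up to 0.0635), MGD3 without 4 h Exp1, Exp2 or Exp3 or 0 h Exp2 or Exp3 (edgeR adjusted p up to 0.266), and SPX2 without 4 h Exp1 or 0 h Exp2 or Exp3 (edgeR adjusted p up to 0.0745). SPX4 lost its call without 4 h Exp1, Exp2 or Exp3 or 0 h Exp1, Exp2 or Exp3 (edgeR adjusted p up to 0.141). In the fits that drop 1 library, the highest values were 16.5-fold for ADS2, 21.1-fold for DGAT1, 29.5-fold for MGD3 and 15.2-fold for SPX1 without 0 h Exp1.

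A part of the cell wall and touch-responsive genes fell. Of 18 xyloglucan and expansin genes, 0 rose and 4 fell (0 risen and 1 to 5 fallen with 1 library left out). EXPA8 (AT2G40610), a wall-loosening expansin, had 4.85, 11.3 and 5.53 CPM at 4 h, against 59.4, 62 and 64.3 CPM at 0 h. The 0 h libraries nearly coincided and lay well above 4 h, and EXPA8 fell 8.53-fold (log2 -3.09 ± 0.62 SE, edgeR adjusted p = 0.000941). XTH22 (AT5G57560), the xyloglucan endotransglucosylase known as TCH4, had 25.3, 53.6 and 44.2 CPM at 4 h, against 229.9, 749 and 152 CPM at 0 h, with the 0 h libraries widely spread, and fell 9.19-fold (log2 -3.2 ± 0.88 SE, edgeR adjusted p = 0.0158). XTH23 (AT4G25810) fell 7.12-fold (log2 -2.83 ± 0.70 SE, edgeR adjusted p = 0.00696) and EXPA10 (AT1G26770) fell 1.9-fold (log2 -0.93 ± 0.27 SE, edgeR adjusted p = 0.0241). Of 14 touch and calcium genes, 0 rose and 2 fell. TCH2 (AT5G37770), a calmodulin-like protein, had 30.8, 43.2 and 44.8 CPM at 4 h, against 224, 359 and 396 CPM at 0 h, and fell 8.24-fold (log2 -3.04 ± 0.54 SE, edgeR adjusted p = 0.000248). CML23 (AT1G66400), of the same family, had 3.0, 1.53 and 4.25 CPM at 4 h, against 21.4, 27.4 and 85.8 CPM at 0 h, and fell 15.4-fold (log2 -3.94 ± 0.60 SE, edgeR adjusted p = 4.17e-05). XTH22 lost its call without 4 h Exp1 or Exp3 or 0 h Exp2 (edgeR adjusted p up to 0.159), XTH23 without 4 h Exp1 or 0 h Exp2 (edgeR adjusted p up to 0.132), and EXPA10 without 4 h Exp1 or Exp2 or 0 h Exp3 (edgeR adjusted p up to 0.27). For the falls with 1 library left out, the lowest values were 4.65-fold for XTH22 and 3.7-fold for XTH23 without 0 h Exp2 and 8.34-fold for CML23 without 0 h Exp3.

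Aquaporins had a median log2 change of -0.89, against 0.01 over all genes tested. Of these, 13 of 14 were lower at 4 h, but only 4 passed the test (28.6%, against 3.88% fallen over all genes) and 0 rose. PIP2A (AT3G53420), a plasma membrane water channel, had 1077, 1838 and 2489.8 CPM at 4 h, against 3633, 5723 and 9241 CPM at 0 h. The groups did not overlap although both spread widely, and PIP2A fell 3.44-fold (log2 -1.78 ± 0.49 SE, edgeR adjusted p = 0.0172). PIP2B (AT2G37170) fell 3.15-fold (log2 -1.66 ± 0.45 SE, edgeR adjusted p = 0.015), PIP1B (AT2G45960) fell 2.16-fold (log2 -1.11 ± 0.31 SE, edgeR adjusted p = 0.0185) and PIP1C (AT1G01620) fell 1.86-fold (log2 -0.90 ± 0.27 SE, edgeR adjusted p = 0.0291). PIP2A lost its call without 4 h Exp1 or Exp2 or 0 h Exp3 (edgeR adjusted p up to 0.189), PIP2B without 4 h Exp1 or 0 h Exp3 (edgeR adjusted p up to 0.184), and PIP1B without 4 h Exp1 or Exp3 or 0 h Exp2 or Exp3 (edgeR adjusted p up to 0.153). PIP1C lost its call without 4 h Exp1 or Exp2 or 0 h Exp2 or Exp3 (edgeR adjusted p up to 0.225). The list had 0 to 6 fallen members over the fits that left out 1 library.

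Heat shock factors held more falls than rises. Of 12 tested, 1 rose and 3 fell (1 to 2 risen and 3 fallen with 1 library left out). HSFB2B (AT4G11660) had 1.68, 1.15 and 2.02 CPM at 4 h, against 14.7, 27 and 23.3 CPM at 0 h, and fell 13.4-fold (log2 -3.75 ± 0.43 SE, edgeR adjusted p = 5.62e-07). HSFB2A (AT5G62020), like it a class B factor, had 3.33, 4.39 and 4.21 CPM at 4 h, against 18.5, 32.8 and 33.3 CPM at 0 h, and fell 7.09-fold (log2 -2.83 ± 0.56 SE, edgeR adjusted p = 0.00078). HSFA2 (AT2G26150), which sustains heat acclimation, fell 14.3-fold (log2 -3.84 ± 0.82 SE, edgeR adjusted p = 0.00159), at under 1 CPM in every 4 h library. HSFA8 (AT1G67970) had 36.3, 46.9 and 35.4 CPM at 4 h, against 14.5, 8.71 and 5.04 CPM at 0 h, and rose 4.18-fold (log2 2.06 ± 0.35 SE, edgeR adjusted p = 0.000132). Of 13 heat shock protein genes edgeR called 0, with 2 at an unadjusted p under 0.05 and 0 called by DESeq2, and with the experiments as a block 1 fell.

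Of 15 ethylene-response-type factors, 1 rose and 3 fell (0 to 2 risen and 2 to 3 fallen with 1 library left out). ERF104 (AT5G61600) had 4.19, 4.2 and 6.52 CPM at 4 h, against 35.4, 49.9 and 31.5 CPM at 0 h, and fell 7.85-fold (log2 -2.97 ± 0.63 SE, edgeR adjusted p = 0.00152). ERF105 (AT5G51190), tied to freezing tolerance in Arabidopsis, had 1.39, 1.45 and 1.77 CPM at 4 h, against 14.9, 19.7 and 10.2 CPM at 0 h, and fell 9.73-fold (log2 -3.28 ± 0.67 SE, edgeR adjusted p = 0.00112). RAP2.4 (AT1G78080) fell 1.98-fold (log2 -0.99 ± 0.28 SE, edgeR adjusted p = 0.0193), while RAP2.10 (AT4G36900) rose 2.56-fold (log2 1.36 ± 0.39 SE, edgeR adjusted p = 0.0239). Of 13 WRKY factors, 2 rose and 1 fell (0 to 3 risen and 0 to 2 fallen with 1 library left out), and with the experiments as a block 2 fell. By gene, WRKY6 (AT1G62300) rose 2.24-fold (log2 1.16 ± 0.32 SE, edgeR adjusted p = 0.0148), WRKY54 (AT2G40750) rose 4.25-fold (log2 2.09 ± 0.58 SE, edgeR adjusted p = 0.0168) and WRKY46 (AT2G46400) fell 5.81-fold (log2 -2.54 ± 0.77 SE, edgeR adjusted p = 0.0315). Of 5 BT genes, which encode BTB and TAZ domain scaffold proteins, 2 rose and 1 fell (0 to 2 risen and 1 fallen with 1 library left out). BT5 (AT4G37610) had 0.528, 0.546 and 0.577 CPM at 4 h, against 8.45, 17.2 and 15.7 CPM at 0 h, and fell 24.8-fold (log2 -4.63 ± 0.90 SE, edgeR adjusted p = 0.000662). BT1 (AT5G63160) rose 3.44-fold (log2 1.78 ± 0.43 SE, edgeR adjusted p = 0.00505) and BT4 (AT5G67480) rose 2.61-fold (log2 1.39 ± 0.43 SE, edgeR adjusted p = 0.0396). RAP2.4 lost its call without 4 h Exp1 or 0 h Exp3 (edgeR adjusted p up to 0.387), RAP2.10 without 4 h Exp2 or Exp3 or 0 h Exp2 or Exp3 (edgeR adjusted p up to 0.159), and WRKY6 and BT1 without 4 h Exp2 or 0 h Exp3 (edgeR adjusted p up to 0.145). WRKY54 lost its call without 0 h Exp2 or Exp3 (edgeR adjusted p up to 0.162) and WRKY46 and BT4 without 4 h Exp1, Exp2 or Exp3 or 0 h Exp2 or Exp3 (edgeR adjusted p up to 0.275). Over fits without 1 library, the highest values were 6.38-fold for WRKY54 and 3.98-fold for BT4 without 0 h Exp1.

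In gibberellin metabolism 2 genes for inactivation rose and 1 gene for activation fell. Of 19 genes, 6 rose and 2 fell. Without 0 h Exp1 5 rose and 4 fell, with the experiments as a block 6 rose and 4 fell, and over all fits without 1 library 3 to 5 rose and 1 to 4 fell. GA2OX1 (AT1G78440), a 2-oxidase that inactivates gibberellin, had 16.5, 22.5 and 10.4 CPM at 4 h, against 5.09, 0.373 and 0.809 CPM at 0 h, and rose 7.84-fold (log2 2.97 ± 0.57 SE, edgeR adjusted p = 0.000651). GA2OX8 (AT4G21200), of the same class, rose 3.7-fold (log2 1.89 ± 0.59 SE, edgeR adjusted p = 0.0394), and GA3OX1 (AT1G15550), which makes active gibberellin, fell 3.15-fold (log2 -1.65 ± 0.45 SE, edgeR adjusted p = 0.0144). Of the receptors, GID1A (AT3G05120) rose 1.67-fold (log2 0.74 ± 0.21 SE, edgeR adjusted p = 0.0191), GID1B (AT3G63010) rose 3.04-fold (log2 1.6 ± 0.34 SE, edgeR adjusted p = 0.0015) and GID1C (AT5G27320) rose 2.64-fold (log2 1.4 ± 0.31 SE, edgeR adjusted p = 0.00221). Of the DELLA repressors, RGL3 (AT5G17490) rose 5.52-fold (log2 2.47 ± 0.70 SE, edgeR adjusted p = 0.0211) with the 4 h library of Exp2 far above the others, and GAI (AT1G14920) had 16, 17.2 and 13.6 CPM at 4 h, against 27.6, 47.4 and 31.4 CPM at 0 h, and fell 2.27-fold (log2 -1.18 ± 0.24 SE, edgeR adjusted p = 0.000997). GA2OX8 lost its call without 4 h Exp1, Exp2 or Exp3 or 0 h Exp2 or Exp3 (edgeR adjusted p up to 0.243), GA3OX1 and RGL3 without 4 h Exp2 or 0 h Exp3 (edgeR adjusted p up to 0.583), and GID1A without 4 h Exp2 or 0 h Exp1, Exp2 or Exp3 (edgeR adjusted p up to 0.136). With each library left out in turn, the highest values were 28.4-fold for GA2OX1 and 7.5-fold for GA2OX8 without 0 h Exp1. The lowest value was 1.85-fold for RGL3 without 4 h Exp2.

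Abscisic acid genes gave 4 risen and 2 fallen of 22 (1 to 7 risen and 1 to 3 fallen with 1 library left out). NCED3 (AT3G14440), the rate-limiting step of stress-induced synthesis, had 11.4, 25.2 and 10.7 CPM at 4 h, against 4.82, 2.88 and 2.38 CPM at 0 h, and rose 4.67-fold (log2 2.22 ± 0.44 SE, edgeR adjusted p = 0.00083). Of the hydroxylases that break the hormone down, CYP707A2 (AT2G29090) rose 2.95-fold (log2 1.56 ± 0.46 SE, edgeR adjusted p = 0.0267) and CYP707A4 (AT3G19270) rose 3.47-fold (log2 1.8 ± 0.49 SE, edgeR adjusted p = 0.0149). AHG3 (AT3G11410), a protein phosphatase that blocks the signal, had 36.7, 55.5 and 51.9 CPM at 4 h, against 94.6, 236 and 233 CPM at 0 h, and fell 3.91-fold (log2 -1.97 ± 0.44 SE, edgeR adjusted p = 0.00262), while the related ABI1 (AT4G26080) rose 2.27-fold (log2 1.18 ± 0.30 SE, edgeR adjusted p = 0.00973). ABA2 (AT1G52340), a dehydrogenase of the synthesis, fell 1.73-fold (log2 -0.79 ± 0.23 SE, edgeR adjusted p = 0.0256), with overlapping groups. CYP707A2 lost its call without 4 h Exp1 or 0 h Exp2 or Exp3 (edgeR adjusted p up to 0.224), CYP707A4 without 0 h Exp2 or Exp3 (edgeR adjusted p up to 0.156), and ABI1 without 0 h Exp2 (edgeR adjusted p up to 0.0801). ABA2 lost its call without 4 h Exp1 or Exp2 or 0 h Exp2 or Exp3 (edgeR adjusted p up to 0.515). Leaving libraries out singly, the highest values were 7.33-fold for CYP707A2 and 6.25-fold for CYP707A4 without 0 h Exp1. In the fit without 0 h Exp1 the list counted 7 risen and 3 fallen.

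In cytokinin signalling 2 rose and 1 fell of 16, but without 0 h Exp1 1 rose and 4 fell, and with the experiments as a block 2 rose and 2 fell. Of these, CRF4 (AT4G27950) rose 5.54-fold (log2 2.47 ± 0.54 SE, edgeR adjusted p = 0.00201), and the type-A response regulators moved apart, as ARR7 (AT1G19050) rose 2.02-fold (log2 1.01 ± 0.32 SE, edgeR adjusted p = 0.0406) and ARR9 (AT3G57040) fell 3.27-fold (log2 -1.71 ± 0.35 SE, edgeR adjusted p = 0.0010). In auxin response (1 rose and 1 fell of 20), of the Aux/IAA repressors, IAA1 (AT4G14560) rose 2.33-fold (log2 1.22 ± 0.33 SE, edgeR adjusted p = 0.0152) and IAA14 (AT4G14550) fell 2.0-fold (log2 -1.0 ± 0.25 SE, edgeR adjusted p = 0.00759). Of 26 jasmonate genes JAR1 (AT2G46370), which conjugates the hormone to isoleucine, rose 2.28-fold (log2 1.19 ± 0.27 SE, edgeR adjusted p = 0.00365), and 3 rose with the block. Of 15 salicylate genes NPR1 (AT1G64280), a receptor and coactivator, rose 1.67-fold (log2 0.74 ± 0.21 SE, edgeR adjusted p = 0.0235), and 2 rose with the block. Of 18 flowering genes, 1 rose and 1 fell. Of these, SPL9 (AT2G42200) rose 3.17-fold (log2 1.66 ± 0.32 SE, edgeR adjusted p = 0.000692) and TEM2 (AT1G68840) fell 3.92-fold (log2 -1.97 ± 0.55 SE, edgeR adjusted p = 0.0181). SPL9 promotes the change to adult growth and flowering, and TEM2 is a relative of the floral repressor TEM1. Of 19 antioxidant genes AOX1A (AT3G22370), the alternative oxidase, rose 1.98-fold (log2 0.99 ± 0.26 SE, edgeR adjusted p = 0.0119). The called shares were 10% for auxin, 3.85% for jasmonate, 6.67% for salicylate, 11.1% for flowering and 5.26% for antioxidant genes. All were near or below the 7.92% over all genes tested. The 7 genes often used as references lay between -0.44 (GAPC2) and 0.30 (UBQ10) in log2 change, and edgeR called 0, with 0 at an unadjusted p under 0.05 and 0 called by DESeq2. ARR7 lost its call without 4 h Exp1 or Exp3 or 0 h Exp1, Exp2 or Exp3 (edgeR adjusted p up to 0.208), ARR9 without 0 h Exp3 (edgeR adjusted p up to 0.0544), and IAA1 without 4 h Exp1 or 0 h Exp2 or Exp3 (edgeR adjusted p up to 0.131). IAA14 lost its call without 0 h Exp2 or Exp3 (edgeR adjusted p up to 0.0548), JAR1 without 4 h Exp2 or 0 h Exp3 (edgeR adjusted p up to 0.188), and NPR1 without 4 h Exp1 or Exp2 or 0 h Exp3 (edgeR adjusted p up to 0.294). TEM2 lost its call without 4 h Exp1 or Exp2 or 0 h Exp2 or Exp3 (edgeR adjusted p up to 0.117) and AOX1A without 4 h Exp2 or 0 h Exp2 or Exp3 (edgeR adjusted p up to 0.111). Where 1 library was left out, the highest value was 19.1-fold for CRF4 without 0 h Exp1.

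Outside these lists, the largest changes that were called in every fit with 1 library left out belonged in part to genes with no described role. AT1G70420, annotated with a DUF1645 domain, had 123, 179 and 123 CPM at 4 h, against 35.8, 1.9 and 2.66 CPM at 0 h, and rose 10.5-fold (log2 3.39 ± 0.62 SE, edgeR adjusted p = 0.000339). AT1G11210, with a DUF761 domain, had 184, 371 and 196 CPM at 4 h, against 63.2, 4.31 and 3.52 CPM at 0 h, and rose 10.6-fold (log2 3.4 ± 0.76 SE, edgeR adjusted p = 0.00251). DREB2C (AT2G40340), a DREB2 factor known from heat in Arabidopsis, had 9.44, 8.05 and 6.06 CPM at 4 h, against 2.66, 0.102 and 0.0476 CPM at 0 h, and rose 8.26-fold (log2 3.05 ± 0.67 SE, edgeR adjusted p = 0.00229). AT1G07050, a CCT motif protein, had 64.5, 57.1 and 58 CPM at 4 h, against 20.8, 0.441 and 0.714 CPM at 0 h, and rose 8.14-fold (log2 3.02 ± 0.62 SE, edgeR adjusted p = 0.00116). In each of these the 0 h library of Exp1 lay between the 4 h libraries and the other 0 h libraries. AT2G28720, annotated as a histone, rose 7.36-fold (log2 2.88 ± 0.39 SE, edgeR adjusted p = 1.09e-05), AT5G37440, with a DnaJ domain, rose 8.63-fold (log2 3.11 ± 0.41 SE, edgeR adjusted p = 6.45e-06), and AT1G16850 rose 9.29-fold (log2 3.22 ± 0.62 SE, edgeR adjusted p = 0.000586). The other risen genes named by the rule were AT1G53035, AT1G04570, AT2G39920, AT5G10410 and AT1G51090, between 7.4- and 8.98-fold higher. With 1 library left out, the highest values were 62.3-fold for AT1G70420, 63.8-fold for AT1G11210, 95.2-fold for DREB2C, 105-fold for AT1G07050, 14-fold for AT2G28720, 29.5-fold for AT1G53035, 90.8-fold for AT1G04570, 94.9-fold for AT2G39920, 17.4-fold for AT5G10410 and 17.9-fold for AT1G51090 without 0 h Exp1. That of DREB2C rests on 0 h levels of 0.102 and 0.0476 CPM, near the floor of the counts, so its size is uncertain. The lowest value was 5.39-fold for AT1G16850 without 4 h Exp2.

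Among the genes named by that rule the highest fold was a fall with all libraries and a rise without 0 h Exp1. AT1G72240, of no described role, had 0.594, 0.737 and 0.825 CPM at 4 h, against 19.9, 33.9 and 48.4 CPM at 0 h, and fell 47.3-fold (log2 -5.56 ± 0.90 SE, edgeR adjusted p = 8.87e-05). AT1G22190, an AP2-domain factor, had 3.96, 5.81 and 7.88 CPM at 4 h, against 124, 166 and 204 CPM at 0 h, and fell 28-fold (log2 -4.81 ± 0.70 SE, edgeR adjusted p = 2.53e-05). DREB26 (AT1G21910), another AP2-domain factor, had 3.23, 3.82 and 3.22 CPM at 4 h, against 68.1, 140.0 and 55.6 CPM at 0 h, and fell 25.6-fold (log2 -4.68 ± 0.93 SE, edgeR adjusted p = 0.000845). In these genes the 0 h library of Exp1 stood with the other 0 h libraries, far above 4 h. EXO (AT4G08950), EXORDIUM, a brassinosteroid-induced growth gene, had 14.3, 18.7 and 20.7 CPM at 4 h, against 288, 719 and 216 CPM at 0 h, and fell 22.8-fold (log2 -4.51 ± 0.80 SE, edgeR adjusted p = 0.000268). AT4G27280, an EF-hand calcium-binding protein, had 9.14, 20.7 and 14.2 CPM at 4 h, against 195, 392 and 235 CPM at 0 h, and fell 18.7-fold (log2 -4.22 ± 0.83 SE, edgeR adjusted p = 0.00074). ACS11 (AT4G08040), an ACC synthase of ethylene production, fell 16.5-fold (log2 -4.04 ± 0.70 SE, edgeR adjusted p = 0.000188), and ESE3 (AT5G25190), an ethylene- and salt-inducible AP2 factor, fell 13.9-fold (log2 -3.8 ± 0.47 SE, edgeR adjusted p = 2.12e-06). AT1G30250, AT3G50800, AT1G33760, AT3G09870, AT2G23690 and AT4G33666 were the other fallen genes named by the rule, between 14.8- and 41.1-fold lower. With libraries left out singly, the lowest values were 14.1-fold for EXO, 11-fold for ACS11 and 20.6-fold for AT1G33760 without 0 h Exp2 and 15.1-fold for AT1G30250 and 8.35-fold for AT4G33666 without 0 h Exp3.

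The interval from 2 h to 4 h in cold was tested on its own, and 176 genes rose (0.849% of those tested) while 62 fell (0.299%) at 4 h against 2 h, together 238 (1.15%). This comparison uses no 0 h library, and shares its 4 h libraries with the comparison above. Its 2 h libraries were less like each other than like libraries of other times, as given above, and the reason was not tested. DGAT1 had 35.3, 41.1 and 39.3 CPM at 4 h, against 3.72, 1.94 and 2.92 CPM at 2 h, with no overlap, and rose 13.5-fold (log2 3.75 ± 0.48 SE, edgeR adjusted p = 3.02e-05). TOC1 had 72.2, 93.1 and 59.8 CPM at 4 h, against 12.9, 8.81 and 12.1 CPM at 2 h, and rose 6.66-fold (log2 2.74 ± 0.46 SE, edgeR adjusted p = 0.00129). GRP7 had 2166, 1814 and 2311 CPM at 4 h, against 396, 267 and 224 CPM at 2 h, and rose 7.09-fold (log2 2.83 ± 0.54 SE, edgeR adjusted p = 0.00325). AT4G33980 had 79.6, 109 and 80.5 CPM at 4 h, against 3.98, 6.7 and 1.17 CPM at 2 h, and rose 22.8-fold (log2 4.51 ± 0.84 SE, edgeR adjusted p = 0.00325). COR27 had 151, 236 and 207 CPM at 4 h, against 10.8, 15.7 and 6.02 CPM at 2 h, and rose 18.3-fold (log2 4.19 ± 0.84 SE, edgeR adjusted p = 0.00496), a call lost without 2 h Exp3 (edgeR adjusted p up to 0.0583). SUS1 rose 4.29-fold (log2 2.1 ± 0.41 SE, edgeR adjusted p = 0.00421), BBX7 7.45-fold (log2 2.9 ± 0.57 SE, edgeR adjusted p = 0.0043) and GID1B 3.55-fold (log2 1.83 ± 0.34 SE, edgeR adjusted p = 0.00325). ELF4 rose 12.6-fold (log2 3.65 ± 0.78 SE, edgeR adjusted p = 0.00874), lost without 2 h Exp2 or Exp3 (edgeR adjusted p up to 0.0769). AT2G44500 fell 7.76-fold (log2 -2.96 ± 0.64 SE, edgeR adjusted p = 0.00955), lost without 4 h Exp1 or Exp3 (edgeR adjusted p up to 0.0949), MYB70 5.09-fold (log2 -2.35 ± 0.53 SE, edgeR adjusted p = 0.0129), lost without 4 h Exp1, Exp2 or Exp3 (edgeR adjusted p up to 0.0793), and DREB26 11.1-fold (log2 -3.48 ± 0.88 SE, edgeR adjusted p = 0.0352), lost without 4 h Exp1, Exp2 or Exp3 or 2 h Exp2 or Exp3 (edgeR adjusted p up to 0.156). AT4G33980 ranged from 16.8- to 35-fold (without 2 h Exp3 and without 2 h Exp2), and AT2G44500 reached 13.8-fold without 4 h Exp2. Of the COR and LEA genes 4 rose over this interval, and of the day and evening clock genes 3 (TOC1, PRR3 and ELF4). COR15A, COR15B and LTI30 each lost that call without 4 h Exp2 or Exp3 or 2 h Exp1, Exp2 or Exp3 (edgeR adjusted p up to 0.166), and COR413-PM1 without 4 h Exp2 or Exp3 or 2 h Exp2 or Exp3 (edgeR adjusted p up to 0.0882). CBF1 had 13.5, 16.7 and 19.7 CPM at 4 h, against 22.9, 47.3 and 7.39 CPM at 2 h, and CBF2 had 53.2, 139.9 and 139 CPM at 4 h, against 384, 591 and 144 CPM at 2 h, and neither was called. The count of calls was 67 without 2 h Exp2 and 104 without 2 h Exp3, and it was 112, 124 and 116 without 4 h Exp1, Exp2 and Exp3. With all libraries of Exp2 left out, in every group of the series, it was 2, and with all of Exp3 left out 15. A block by experiment for each condition gave 834.

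Set in the time course from 0 to 24 h, the genes above did not share one shape. CBF2 averaged 26.5 ± 16.9, 373 ± 224, 111 ± 49.7, 65.4 ± 60.3, 19.8 ± 11.9 and 37 ± 26.7 CPM at 0 h, 2 h, 4 h, 6 h, 12 h and 24 h (mean ± SD, n = 3 libraries, here and in this order below), so its highest mean came before 4 h. CBF3 averaged 25.6 ± 39.9, 246 ± 114, 246 ± 65.3, 159.6 ± 47.8, 35.6 ± 10.3 and 27.5 ± 18.8 CPM. COR15A averaged 546 ± 322, 567 ± 138, 2152 ± 562, 3675 ± 1041, 10982 ± 4126 and 12353 ± 3701 CPM, and was still below its later level at 4 h. TOC1 averaged 12 ± 13.9, 11.3 ± 2.16, 75 ± 16.8, 124 ± 14.4, 79.9 ± 10.2 and 39.3 ± 3.07 CPM. SPX1 averaged 8.5 ± 6.41, 92.5 ± 51.9, 73.1 ± 35.8, 28.2 ± 9.1, 23.4 ± 15.7 and 32.7 ± 11.9 CPM. DGAT1 averaged 6.82 ± 8.64, 2.86 ± 0.888, 38.6 ± 2.96, 86.5 ± 5.03, 50.5 ± 5.78 and 27 ± 2.88 CPM, and like TOC1 it had its highest mean at 6 h. The 0 h SD of these genes includes 0 h Exp1. EXPA8 averaged 61.9 ± 2.49, 20.3 ± 13.1, 7.23 ± 3.56, 2.63 ± 0.547, 2.53 ± 0.909 and 0.84 ± 0.137 CPM. HSFB2B averaged 21.7 ± 6.34, 2.65 ± 0.671, 1.62 ± 0.441, 3.08 ± 0.64, 13.5 ± 6.69 and 10.1 ± 1.45 CPM, lowest at 4 h. Against 0 h, 81 genes were called at 2 h (0.391%), 1640 at 4 h (7.92%), 3747 at 6 h (18.1%), 4397 at 12 h (21.2%) and 6038 at 24 h (29.1%). These comparisons share the 0 h libraries. Of them, 24 h alone falls at the same time of day as 0 h.

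**Figure D3:**
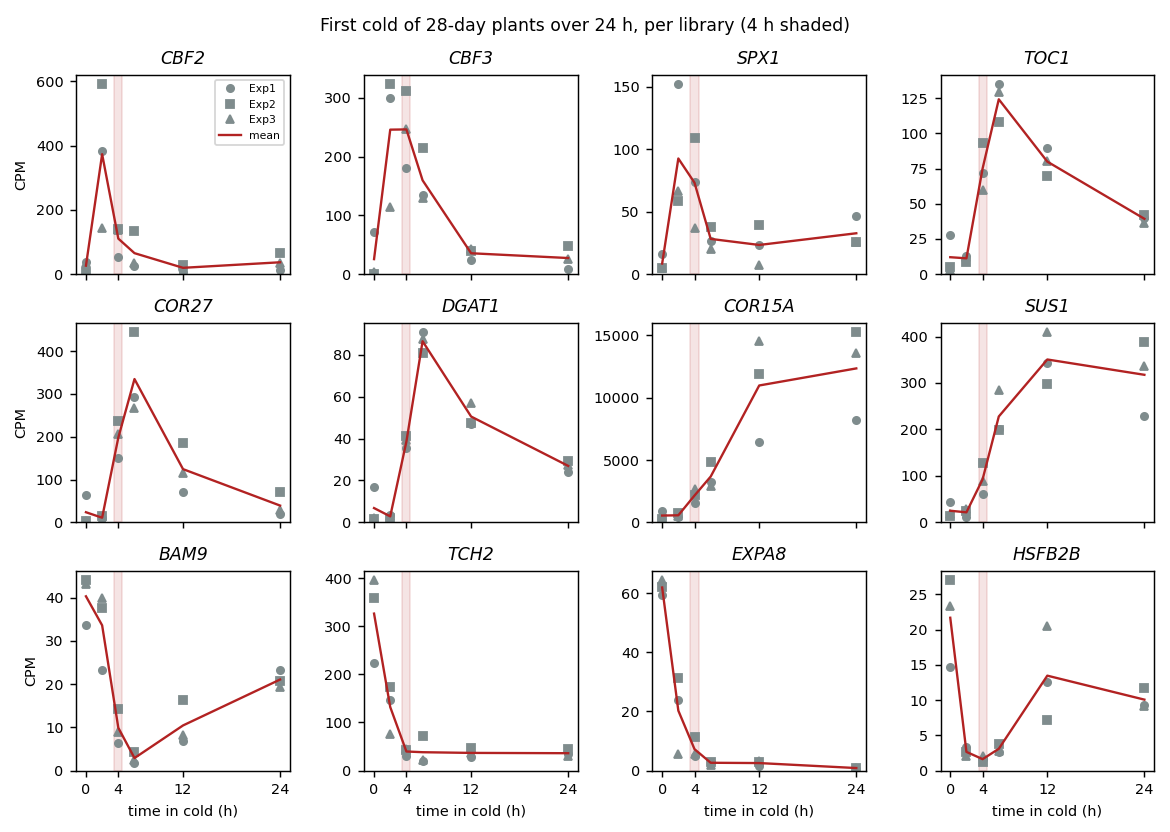
CPM (linear axis from 0) of 12 genes in C28P plants against hours in the cold (0 to 24 h, with 4 h shaded), with 1 point per library and a line through the means. CBF2 has its highest mean before 4 h, COR15A goes on to higher means after 4 h, and EXPA8 is lower at 4 h than at 0 h.

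The response of 28-day plants was set beside that of 35-day plants (C35P), which were sampled in the same 3 experiments but share no library. At 4 h itself edgeR called 0 genes between C28P and C35P, with 251 at an unadjusted p under 0.05 and 0 called by DESeq2. The difference of the responses (C28P minus C35P) gave 0 calls too, with 262 genes (1.26% of those tested) at an unadjusted p under 0.05 and 2 called by DESeq2. With no true difference, a share of about 0.05 of genes would lie below that p. Such a count is no sign of a difference, and 0 calls do not show equal responses. In edgeR the number of calls was 6 without 0 h Exp2 of C28P and 6 without its 0 h Exp3. In C35P 2125 genes (10.3%) were called at 4 h against 0 h, and 1290 were called with the same sign in both conditions, which is 78.7% of the C28P calls and 60.7% of the C35P calls. With opposite signs 0 genes were called. CBF3 had log2 3.27 ± 0.79 SE in C28P and log2 6.51 ± 0.93 SE in C35P. COR15A had log2 1.98 ± 0.48 SE in C28P and log2 2.85 ± 0.50 SE in C35P. Among named genes called in C28P the 3 widest gaps were those of FKF1, AT4G33980 and PRR5. FKF1 had log2 2.67 ± 0.72 SE in C28P and log2 7.89 ± 0.97 SE in C35P (difference log2 -5.22 ± 1.11 SE, edgeR adjusted p = 0.387). AT4G33980 had log2 3.29 ± 0.79 SE in C28P and log2 7.93 ± 1.02 SE in C35P (difference log2 -4.63 ± 1.16 SE, edgeR adjusted p = 1.0). PRR5 had log2 2.61 ± 0.77 SE in C28P and log2 7.08 ± 0.97 SE in C35P (difference log2 -4.47 ± 1.11 SE, edgeR adjusted p = 1.0). Without 0 h Exp1 the C28P log2 values were 7.03 for FKF1, 6.61 for AT4G33980, 7.28 for PRR5 and 6.6 for CBF3, each nearer the C35P value. EXPA8 had log2 -3.09 ± 0.62 SE in C28P and log2 -3.23 ± 0.62 SE in C35P.

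Beside the second cold of C28PLT plants, edgeR called 0 differences of response (C28P minus C28PLT), with 928 genes at an unadjusted p under 0.05 and 37 called by DESeq2. The edgeR count was 4 without 0 h Exp2 of C28P and 19 without its 0 h Exp3. C28PLT had 2638 genes called at 4 h against 0 h (12.7%). C28PLT plants met the second cold after their first cold and the warm lag, so they were also older than C28P plants. Earlier cold and plant age cannot be told apart in this comparison. Among named genes called in C28P the 4 widest gaps were those of AT1G33760, PRR5, XTH22 and FKF1. AT1G33760 had log2 -4.99 ± 1.24 SE in C28P and log2 3.18 ± 1.16 SE in C28PLT (difference log2 -8.16 ± 1.7 SE, edgeR adjusted p = 0.117). XTH22 had log2 -3.2 ± 0.88 SE in C28P and log2 2.42 ± 0.85 SE in C28PLT (difference log2 -5.62 ± 1.22 SE, edgeR adjusted p = 0.117). DREB26 had log2 -4.68 ± 0.93 SE in C28P and log2 0.03 ± 0.81 SE in C28PLT (difference log2 -4.71 ± 1.19 SE, edgeR adjusted p = 0.226). EXO had log2 -4.51 ± 0.80 SE in C28P and log2 -0.28 ± 0.70 SE in C28PLT (difference log2 -4.23 ± 1.02 SE, edgeR adjusted p = 0.199). PRR5 and FKF1 had log2 8.44 ± 1.04 SE and log2 7.87 ± 0.95 SE in C28PLT, beside the C28P values given above. Without 0 h Exp1 the C28P values were log2 7.28 for PRR5 and log2 7.03 for FKF1, nearer those of C28PLT. At 0 h, XTH22 had 229.9, 749 and 152 CPM in C28P and 22.2, 17.4 and 13.5 CPM in C28PLT, and at 4 h 25.3, 53.6 and 44.2 CPM in C28P and 71.2, 44.6 and 169.5 CPM in C28PLT. None of these differences passed the adjusted threshold in edgeR, which does not show that the responses were equal. CBF3 had log2 3.27 ± 0.79 SE in C28P and log2 6.92 ± 0.95 SE in C28PLT, and LTI30 had log2 3.48 ± 0.78 SE in C28P and log2 4.18 ± 0.81 SE in C28PLT. Without 0 h Exp1 their C28P values were log2 6.6 for CBF3 and log2 5.1 for LTI30.

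**Figure D4:**
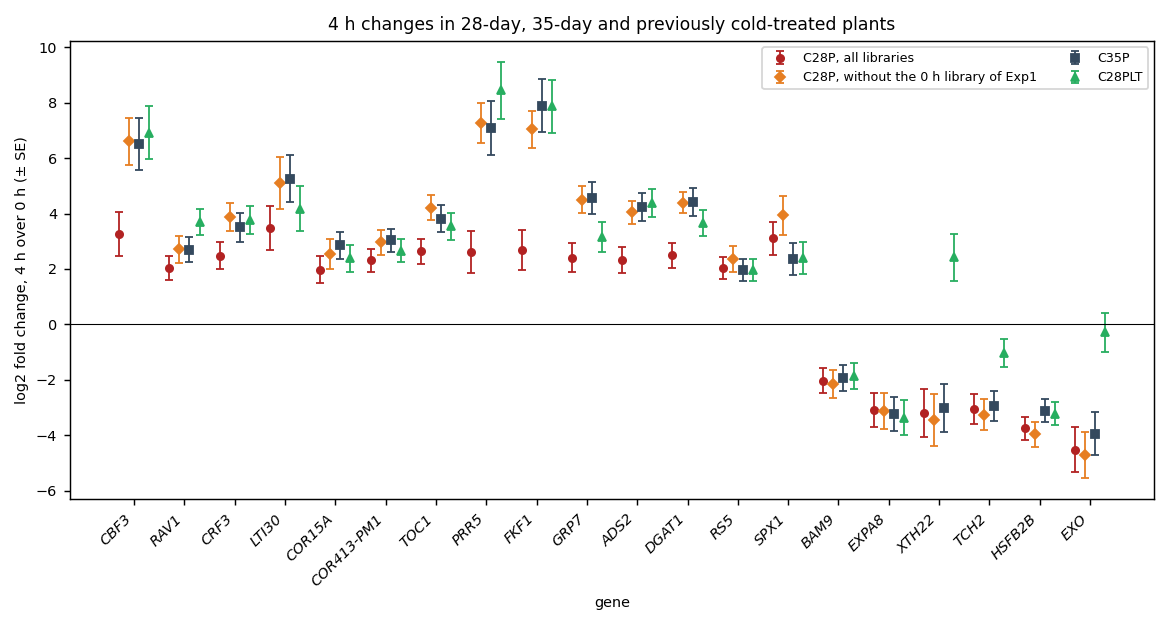
Log2 fold change of 20 genes at 4 h against 0 h (± SE) in C28P, in C28P without 0 h Exp1, in C35P and in C28PLT. For FKF1 and PRR5 the C28P value without that library lies near the C35P value, and for XTH22 and EXO the C28PLT value lies far above the others.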

How the data were processed

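Raw read counts for 36632 genes in 54 libraries (0 columns without a sample) were deposited. Per the submitters' processing notes the authors used Trimmomatic and DESeq2 (no versions given), STAR 2.7.9a and the build TAIR10, named there without a role. Libraries kept strand information, per the labels' protocols. For annotation version, strand setting in counting and treatment of multiply mapping reads nothing is stated in the labels or file headers. Near-identical genes (CBF1 to CBF3, KIN1 and KIN2, COR15A and COR15B, COR47 and ERD10, GRP7 and GRP8, LHCB1 and RBCS copies) and overlapping or antisense genes are therefore uncertain. At these depths counting error is small beside the spread between libraries (common dispersion 0.1197, biological coefficient of variation 0.346), except in genes with few counts.

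A low-count filter (filterByExpr, minimum 10) left 20720 genes (56.6%). edgeR 4.0.16 in R 4.3.3 fitted all 54 libraries as 18 groups (36 residual degrees of freedom) by robust quasi-likelihood with TMM scaling, without a block, and tested 5 contrasts. Calls need a Benjamini-Hochberg adjusted p under 0.05 over all genes tested. CPM were computed here from the deposited counts. The statistics were tested on simulated data first. Alternatives were DESeq2 1.42.0, RLE size factors, no filter, an offset for length and GC, blocks for the experiment, a fit on the compared groups only, and leaving out each library or experiment.

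Replicate numbers are independent experiments, per the labels. Deviations of same-numbered 4 h and 0 h libraries from their group means correlated at 0.3974, 0.4584 and 0.4798 over genes, so the numbers pair the libraries. The main fit left this pairing out and called 1640 genes at 4 h against 0 h. With the experiments as a block the count was 2016. Between libraries of a group chi-square per degree of freedom was at least 46.85, so none duplicated another.

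Named genes are the members of 41 lists (593 distinct genes, 601 of 637 entries matched by symbol or synonym), plus at most 15 called genes per direction, ranked by size of change, that averaged 5 CPM or more in either group, moved with 1 sign in all 3 experiments and stayed called whichever library was left out. For 4 h against 2 h at most 5 per direction were taken, without the last condition. The comparison, members and lists were chosen with earlier results of these data known. Gene IDs were matched to RefSeq's TAIR10.1 (all 36632), which supplied names and the 250 bases before each annotated start, and whose coordinates are those printed.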

Additional observations from a re-analysis of the deposited data

How the results depend on the processing

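The count of 1640 genes at 4 h against 0 h was 2906 with a replicate block for each condition, 2745 with a length and GC offset and a replicate block, and 272 when only the 2 groups were fitted, and it ranged from 71 to 2377 when 1 library or 1 experiment was left out. With the replicate block alone it was 2016, with DESeq2 2025, with RLE size factors 1619, without a filter 1319 and with the length and GC offset 2187. For 4 h against 2 h (238 genes) DESeq2 gave 511, the replicate block for each condition 834, the length and GC offset 494 and the offset with a replicate block 703, and leaving out libraries gave 2 to 286. Between C28P and C35P at 4 h every fit that left out libraries gave 0 to 0. The C28P minus C35P difference (0) was 2 with DESeq2 and 0 to 6 with libraries left out. The C28P minus C28PLT difference (0) was 37 with DESeq2, 1 with the replicate block for each condition and 0 to 19 with libraries left out. The cause of these shifts was not tested, other than that fits on fewer libraries have fewer degrees of freedom.

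Among the 145 named genes called at 4 h against 0 h, 141 were still called without 0 h Exp1, 86 without 0 h Exp2, 76 without 0 h Exp3, 144 with the replicate block (all but DEAR1) and 145 with DESeq2. Of 3414 values of single genes under alternatives, 9 changed sign, and all belong to genes of low count that were not called. CBF4 (1.91) ranged from -1.0 (without 4 h Exp2) to 2.73 with libraries left out, and was -0.14 without Exp2 in every group of the series. DDF1 (-1.09) ranged from -3.39 to 0.61 (without 0 h Exp2). DDF2 (0.19) ranged from -2.14 to 0.95, and was -0.15 with the replicate block and -0.44 with it for each condition. It was -1.33 without Exp2 in every group, -0.02 without 0 h Exp1 and -0.13 without 0 h Exp3.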
